A study of Mus musculus with 106 samples.

Results

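Chromatin was read at 10 genes for signalling proteins of the inflammatory response: the interleukin-1 family ligands Il1a and Il1b with the receptor antagonist Il1rn, the interleukin-12 family subunits Il12b, Il23a and Il27, the gp130 ligands Il6 and Osm, and Tnf and Il10. These 10 genes were taken by name from the 21938 protein-coding genes of the annotation, by a rule that used no measured value. Each was read at its promoter (within 1000 bp of any annotated start site on GRCm38) and over its gene body with 20 kb to either side. The histone marks H3K27ac and H3K4me3 were measured by chromatin immunoprecipitation with sequencing (ChIP-seq). H3K27ac is an acetylation found at active promoters and enhancers, and H3K4me3 a methylation of active promoters.

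The cells came from C57BL/6J mice, 12 to 14 weeks old when assigned to be controls or to be made diabetic with streptozotocin, a toxin of the insulin-producing beta cell, given at 42 to 45 mg/kg daily for 5 days. Diabetic donors had blood glucose over 13.9 mmol/L and were killed 6 weeks after the injections. HSC in the labels are marrow cells depleted of cells carrying CD3, CD4, B220, Ter119 or Gr1, a progenitor-rich fraction and not a purified stem cell. Bone marrow-derived macrophages (BMDM) were grown for 7 days in L929-conditioned medium at 5 mmol/L glucose, in control and diabetic cultures alike. They were left unstimulated or given LPS (100 ng/mL) with IFN-γ (10 ng/mL), for 16 h in the study's general BMDM protocol. Its ChIP-seq methods state no stimulation time of their own. The 70 libraries with a peak list formed 12 groups by mark, cell state and disease, 10 of 6 libraries and 2 of 5 (unstimulated diabetic BMDM of either mark).

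These cytokines are made in bursts. LPS engages Toll-like receptor 4 and brings NF-κB and AP-1 to cytokine promoters, IFN-γ acts through IRF factors, and macrophage enhancers are prepared beforehand by PU.1 and C/EBP proteins. Several of the genes are held nearly silent in resting macrophages and are shut down again by inhibitors such as Il10 and Nfkbia. H3K4me3 is usually broad and constant over promoters rich in CpG dinucleotides, whereas many cytokine promoters are poor in CpG. How diabetes in the donor, stimulation of the culture and the step from progenitor to macrophage bear on these genes is the question that the groups address.

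The 250 bases upstream of the start site are shown for 5 members, because they differ in motifs and in CpG content, which is set beside their marks. They are RefSeq promoters on GRCm38.p6, printed 5′ to 3′ along the gene, with matches to the searched motifs in capitals.
Il6, chr5:30012864-30013113, plus strand: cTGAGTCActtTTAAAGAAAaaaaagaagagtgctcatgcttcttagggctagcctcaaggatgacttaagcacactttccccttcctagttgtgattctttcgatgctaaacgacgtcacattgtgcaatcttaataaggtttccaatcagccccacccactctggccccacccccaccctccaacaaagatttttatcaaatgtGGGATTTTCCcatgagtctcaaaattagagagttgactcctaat
Il1b, chr2:129371140-129371389, minus strand: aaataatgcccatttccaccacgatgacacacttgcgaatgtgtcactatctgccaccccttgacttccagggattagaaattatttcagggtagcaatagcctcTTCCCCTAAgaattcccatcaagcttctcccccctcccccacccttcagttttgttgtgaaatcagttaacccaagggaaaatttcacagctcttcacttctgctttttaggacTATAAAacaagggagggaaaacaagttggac
Il1a, chr2:129309973-129310222, minus strand: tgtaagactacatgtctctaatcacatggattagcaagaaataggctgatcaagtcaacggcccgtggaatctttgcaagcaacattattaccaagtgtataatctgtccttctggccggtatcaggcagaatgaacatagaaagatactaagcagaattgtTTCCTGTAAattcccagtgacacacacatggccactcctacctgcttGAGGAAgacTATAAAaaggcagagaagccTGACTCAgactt
Tnf, chr17:35202008-35202257, minus strand: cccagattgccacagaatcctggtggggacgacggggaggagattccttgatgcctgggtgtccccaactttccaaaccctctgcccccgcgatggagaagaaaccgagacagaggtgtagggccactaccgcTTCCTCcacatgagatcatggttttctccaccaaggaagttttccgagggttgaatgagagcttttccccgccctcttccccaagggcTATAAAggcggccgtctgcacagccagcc
Il12b, chr11:44399813-44400062, plus strand: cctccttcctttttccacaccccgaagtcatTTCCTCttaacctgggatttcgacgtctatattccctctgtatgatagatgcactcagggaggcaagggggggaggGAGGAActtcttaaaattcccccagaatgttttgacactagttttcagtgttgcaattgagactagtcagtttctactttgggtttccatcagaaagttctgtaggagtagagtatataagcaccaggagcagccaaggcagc
RefSeq entries matched 6 of the 10 genes. Il10, Il23a, Il27 and Osm had none. Motifs were searched on both strands. NF-κB and ISRE were searched by their consensus. AP-1 was searched as TGANTCA, a site of Fos and Jun proteins. C/EBP was searched as TTNCNNNAA and PU.1, the myeloid master factor, as GAGGAA. STAT was searched as TTCNNNGAA and the cyclic AMP element CRE as TGACGTCA. The TATA box was searched as TATAAA. The C/EBP and PU.1 patterns can overlap. A match is a run of letters and not a shown binding site.

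Among the promoters shown, Il6 had an NF-κB match, GGGATTTTCC at bases -44 to -35 from the start site, where 4.2% of 21263 promoters of this length held one. An AP-1 match lay at bases -249 to -243 of Il6 and another at -12 to -6 of Il1a, against 6.1% of promoters. A TATA box lay 29 to 32 bases before the start of Tnf, Il1b and Il1a, against 11.6% of promoters, and none was found in these letters for Il6 and Il12b. PU.1 matches were present in Il1a, Tnf and Il12b (22.2% of promoters) and C/EBP matches in Il6, Il1b and Il1a (30.4% of promoters).

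CpG content split Tnf from the rest of the printed set. The Tnf promoter held 10 CpG, equal to the median of all promoters, and 57.6% GC against a median of 55.6%. Il6, Il1a and Il12b held 3 CpG each and Il1b held 2, with 42.4% to 46.0% GC. Across genes, the 5545 promoters with at most 5 CpG carried an H3K27ac peak in a mean of 28.0% of libraries and the 10889 richer ones in 89.6%. The same shares for H3K4me3 were 28.3% and 93.4%. The members are few, and CpG content is given beside their marks as a description.

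Occupancy was read first, as the number of libraries whose list held a promoter peak. Over 35 H3K27ac libraries the 10 members had a promoter peak in 233 of 350 member-library pairs (66.6%), and all protein-coding genes in 67.0%. Over 35 H3K4me3 libraries they had one in 140 of 350 pairs (40.0%), where all genes had one in 65.2% to 72.6% by cell state. The members' share was close to that of all genes for acetylation and lower for methylation. By cell state the H3K27ac share of the members was 61.7% in HSC, 62.7% in unstimulated BMDM and 75.0% after LPS+IFN-γ, while that of all genes was 67.6%, 67.4% and 66.1%. Their H3K4me3 share was 29.2%, 43.6% and 47.5%, against 65.2%, 72.6% and 72.4% for all genes. The share of all genes hardly moved between the BMDM states in either mark.

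**Figure D1:**
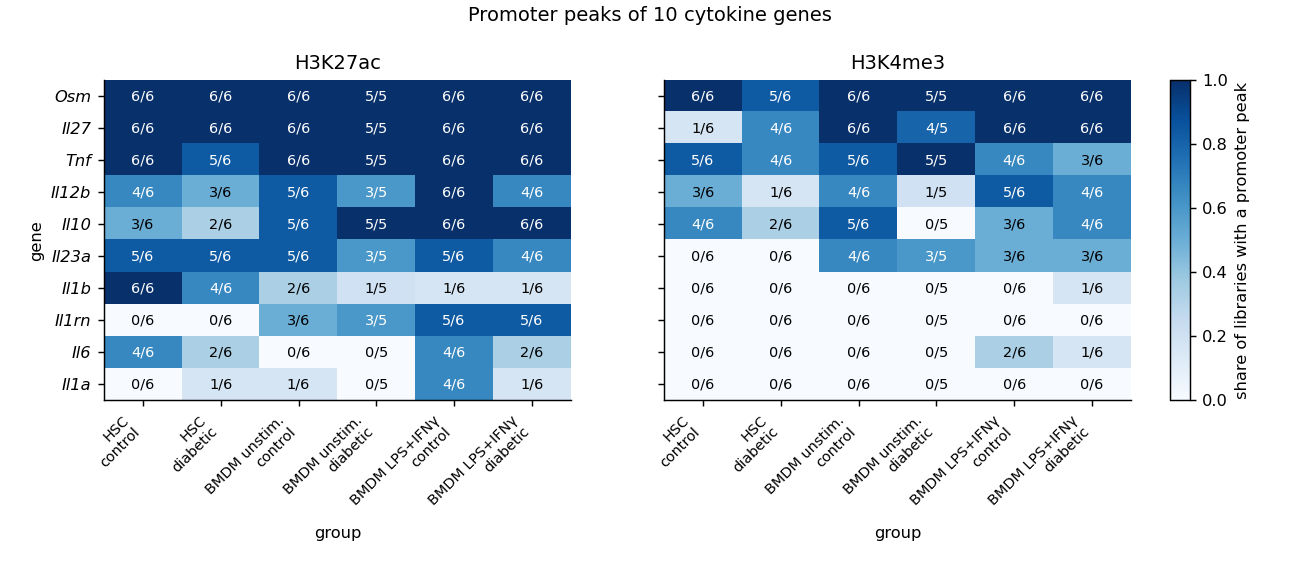
Number of libraries with a promoter peak for each cytokine gene (vertical axis) in each group (horizontal axis), for H3K27ac (left) and H3K4me3 (right). Colour is the share of the 5 or 6 libraries of a group. Osm and Il27 had an H3K27ac peak in each of 35 libraries, Il1a and Il1rn had no H3K4me3 peak in any, and Il6 had neither mark in any unstimulated BMDM library.

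The libraries set limits on such counts. Lists held 13730 to 277213 peaks, with 1 list under 20000, and give no read totals, so that sequencing depth is unknown and its part in missing peaks was not tested. Control HSC lists of H3K27ac were longer than diabetic ones, with medians of 130591 and 92673.5 peaks, and H3K4me3 HSC lists were shorter in controls (49624 against 89111). Unstimulated BMDM lists of H3K4me3 had medians of 161117.5 peaks in controls and 96580 in diabetic animals. Marker promoters followed the labelled cell types in part. In controls, 12.8% of all genes tested were called between unstimulated BMDM and HSC. The macrophage genes Cd68 and Mertk ranked higher in unstimulated BMDM (1.11 and 0.64 on the log2 rank scale). The other macrophage genes listed, Csf1r, Adgre1, Lyz2, Cd14, Fcgr1 and Itgam, were not called. The progenitor genes with the largest called differences, Kit, Flt3 and Myb, ranked higher in HSC (-0.65, -0.56 and -0.84). The erythroid gene Gata1 had an H3K27ac peak in 6 of 6 control HSC libraries and 0 of 6 unstimulated control BMDM libraries. The HSC fraction, depleted of Ter119-positive cells, holds progenitors of several kinds, and the part of mixed cells in the members' HSC peaks was not tested. In bulk chromatin, fewer cells of a type and less mark per cell cannot be told apart. A set of 26 H3K27ac regions marked stimulated and another of 27 marked unstimulated diabetic BMDM, none of them in a member's window. Some control libraries followed their labels weakly and were kept throughout. Unstimulated library 1 held 7 of the 26 and 10 of the 27, and LPS+IFN-γ library 3 held 13 and 1. Control LPS+IFN-γ library 5 held 5 of the 26 and 25 of the 27, and unstimulated control libraries 5 and 6 held 18 and 17 of the 26 and 5 and 1 of the 27. These 3 libraries went against their labels and are called by their labels here, and the same check was not made for H3K4me3. They were picked on H3K27ac lists that are compared again here, so that leaving them out can favour stimulation differences. Calls that changed and the main counts are also given without them. In these counts, which were added after seeing the data, the members without the 3 had an H3K27ac promoter peak in 57 of 90 pairs (63.3%) in unstimulated and 84 of 110 (76.4%) in stimulated BMDM. Il6 had one in 0 of 9 and 6 of 11 of these libraries, Il1rn in 5 of 9 and 9 of 11, Il1b in 3 of 9 and 2 of 11, and Il1a in 0 of 9 and 5 of 11.

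Peak strength was compared by rank. In each library the protein-coding genes were ordered on the deposited −log10 p of their best promoter peak, 1 being the strongest, and differences are given on the log2 rank scale with a positive value nearer the top. Distal H3K27ac was the length covered by the 20000 strongest peaks in the 20 kb window outside all promoters, compared on the log2(bp + 500) scale, so that a fold understates the change of short lengths. Both were fitted with limma across all genes that had a peak in at least 50% of the libraries compared, and a call needed a Benjamini-Hochberg adjusted p under 0.05. A gene that reached this share mostly through 1 group compares peaks there with the tied ranks or zero lengths of the other, so that its difference was partly fixed by the filter. The smallest p that exact permutation can give with these group sizes is 0.00216, so that after adjustment no feature can be called unless at least 303 to 714, by comparison, are called together. A count of 0 calls by adjusted exact permutation is therefore also a limit of the design.

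The gp130 ligand Osm was the most strongly marked member. Oncostatin M is released by macrophages and neutrophils and acts through Osmr and gp130. Its H3K27ac promoter peak was among the 20000 strongest in 35 of 35 libraries. Ranks ran from 6668 to 9799 (median 8262) in control HSC, from 1400 to 9313 (median 5516) in unstimulated control BMDM and from 3863 to 9203 (median 6331) in stimulated control BMDM. In diabetic cells they ran from 5685 to 10120 (median 8167.5) in HSC, were 4216, 4256, 5976, 7874 and 8892 in unstimulated BMDM, and ran from 921 to 7980 (median 5377.5) after stimulation. The groups overlapped throughout, with most BMDM libraries above the HSC median.

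Around Osm, distal acetylation rose from HSC to unstimulated BMDM in control and diabetic animals. It covered 1.607 to 6.149 kb (median 3.121) in control HSC and 5.842 to 17.254 kb (median 7.710) in unstimulated control BMDM, where the groups overlapped in 1 HSC library. The difference was 1.41 ± 0.355 (SE) on the log2 scale, a 2.65-fold, with a limma adjusted p of 0.0098 and an exact permutation p of 0.0065. In this comparison 27.8% of all windows tested passed. In diabetic animals it covered 1.071 to 5.484 kb (median 2.780) in HSC and 8.084, 8.138, 5.174, 5.423 and 9.826 kb in unstimulated BMDM. That difference was 1.22 ± 0.340 (adjusted p = 0.018, exact permutation p = 0.015), a 2.34-fold, where 25.0% of all windows passed and 1 HSC library overlapped the BMDM range. Without the 3 libraries against their labels the control difference was 1.65 (adjusted p = 0.013). Both calls were lost when the window reached 5 kb and not 20 kb (0.72 and 0.64), and when the whole lists were read (0.25 and 0.60). The control call was also lost with the 10000 strongest peaks (1.81, adjusted p = 0.051), and the diabetic one with adjusted exact permutation (adjusted p = 0.066) and with the replicate number as a block (1.21, adjusted p = 0.064).

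Marker windows moved at the same step as Osm. Distal H3K27ac was higher in unstimulated BMDM for 3 of 6 macrophage genes tested in controls and 3 of 6 in diabetic animals, and lower for 3 of 5 and 3 of 6 stem and progenitor genes. The stromal gene Pdgfrb, the single one of its list tested, was higher by 2.39 and 1.73, and of 2 T and NK cell genes tested Cd4, which macrophages can also express, was higher by 1.76 and 1.31. Of neutrophil genes 0 of 5 and 1 of 4 were lower, of erythroid genes 1 of 2 and 0 of 2, and the 1 B cell gene tested in controls did not pass. The part of other cell types in the Osm difference was not tested.

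Upstream of Osm, 2 regions differed most in the number of libraries. The farther spanned chr11:4220003-4225342, 11078 bp upstream of Osm and over exons of the neighbouring gene Castor1, and was held by 2 of 12 HSC libraries and 11 of 11 unstimulated BMDM libraries. The next spanned chr11:4228339-4233568, 2852 bp upstream and in no protein-coding gene, held by 6 of 12 and 11 of 11. Both were held by 12 of 12 stimulated libraries. A processed pseudogene, Gm11956, overlaps the nearer region, and with annotated pseudogenes left out of all windows Osm still passed (1.18 and 1.03, adjusted p = 0.023 and 0.036). A region was given to a member by distance alone, and Castor1 and Lif start inside the Osm window. The most widely held 250 bases of each region are shown, plus strand, GRCm38.p6.
Osm region over Castor1, chr11:4221452-4221701: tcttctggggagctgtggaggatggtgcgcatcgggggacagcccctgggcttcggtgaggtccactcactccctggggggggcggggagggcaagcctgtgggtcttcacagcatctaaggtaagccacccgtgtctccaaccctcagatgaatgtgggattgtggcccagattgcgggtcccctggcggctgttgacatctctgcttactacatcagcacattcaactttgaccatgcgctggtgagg
Osm nearer region, chr11:4229621-4229870: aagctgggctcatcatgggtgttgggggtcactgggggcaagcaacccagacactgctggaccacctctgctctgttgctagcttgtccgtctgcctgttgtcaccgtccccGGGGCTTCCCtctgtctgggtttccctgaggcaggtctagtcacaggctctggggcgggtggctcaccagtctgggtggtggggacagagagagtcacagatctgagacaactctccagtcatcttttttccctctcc
The nearer sequence held an NF-κB match, GGGGCTTCCC at its bases 113 to 122, where 4.7% of 3783 distal regions of this length held one. Further downstream, chr11:4240984-4241968 at the end of Osm was held by 0 HSC, 4 unstimulated and 7 stimulated libraries. Opposite to these, chr11:4252971-4254196 was held by 5 HSC libraries, 2 unstimulated and 0 stimulated ones.

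**Figure D2:**
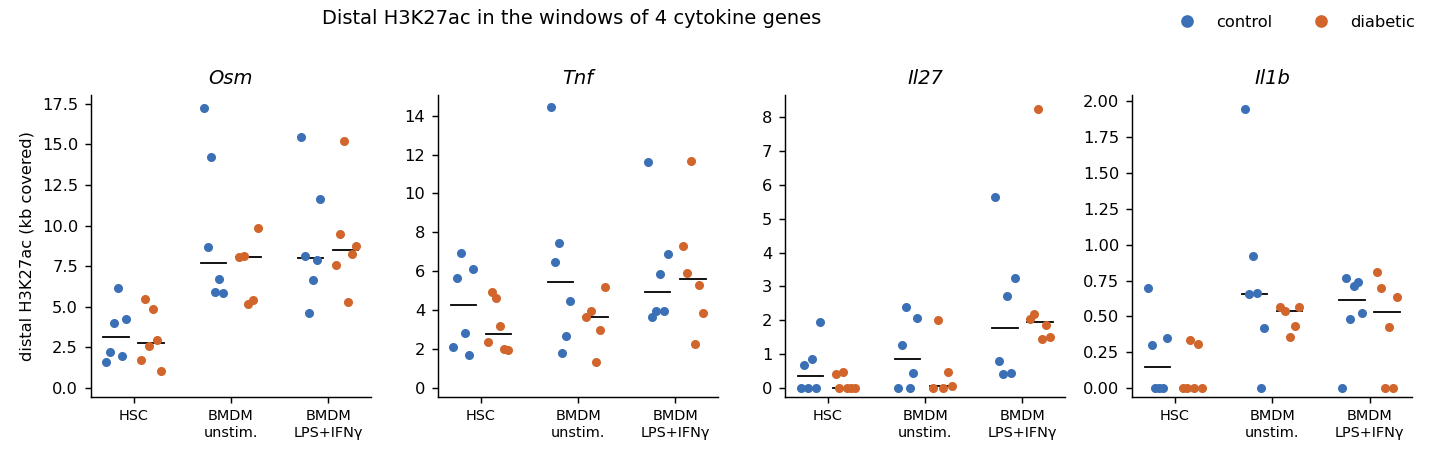
Length in kb covered by the 20000 strongest H3K27ac peaks in the distal window of Osm, Tnf, Il27 and Il1b (vertical axes, each with its own range) by cell state, 1 point per library, control in blue and diabetic in orange, with the group median as a line. Osm ran from 1.071 to 6.149 kb in HSC and from 5.174 to 17.254 kb in unstimulated BMDM.

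For H3K4me3, Osm had a promoter peak in 34 of 35 libraries, 11 of 12 in HSC. Ranks reached the very top in single BMDM libraries (1140, 1437, 1473, 1531 and 1857) and stood at 8421 to 13660 in HSC. Within stimulated diabetic BMDM the 6 ranks fell into a high set (1140, 1531 and 5564) and a low set (12652, 12872 and 13344). The H3K4me3 differences of Osm between groups ran from -0.63 to 0.97 and none passed the test, with standard errors of up to 0.731. In this mark 4 BMDM libraries were treated as of unclear scaling, stimulated diabetic 1 and 2, stimulated control 6 and unstimulated control 6. They were kept throughout, and with them left out no member was called on H3K4me3 either. Their part in the high and low ranks of Osm was not tested.

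Il6, the other gp130 ligand and a classical LPS target, was with Il1a the member with the fewest H3K27ac promoter peaks. Its H3K27ac promoter peak was present in 6 of 12 HSC libraries (ranks 12867 to 14744), in 0 of 11 unstimulated BMDM libraries and in 6 of 12 stimulated ones (ranks 10712 to 14228). No Il6 promoter peak of either mark was among the 20000 strongest of its library. H3K4me3 was present in 3 of 35 libraries, each of them stimulated, with ranks of 13562, 15280 and 15213. In the whole lists, 22 of 35 H3K27ac libraries held some peak in the Il6 window, with at most 2 in a library, and 1 distal stretch of 0.592 kb came within the 20000 strongest, in stimulated control BMDM library 5. That library is one of those against their label.

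Because so few libraries held a peak, Il6 could be tested for disease alone. The difference between diabetic and control was -0.11 ± 0.122 in HSC and -0.10 ± 0.165 in stimulated BMDM, with limma adjusted p of 0.9997 and 0.989 and exact permutation p of 0.468 and 0.610. Peaks were present in 2 of 6 diabetic and 4 of 6 control libraries in either state. The control lists were also the longer ones (median 129022 against 93501.5 peaks in stimulated BMDM), and the part of list length was not tested.

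Interleukin-1 is made as Il1a and Il1b, whose products share the receptor Il1r1, and Il1rn blocks that receptor. The 3 genes lie on chromosome 2 and had distinct patterns. Il1b carried H3K27ac at its promoter in 10 of 12 HSC libraries, 3 of 11 unstimulated and 2 of 12 stimulated BMDM libraries. Il1rn showed the opposite order, with 0 of 12, 6 of 11 and 10 of 12. Il1a had 1 of 12, 1 of 11 and 5 of 12, and 4 of its 5 stimulated libraries were control. No member of the trio had more than 1 H3K4me3 promoter peak in 35 libraries (Il1b 1, Il1a 0, Il1rn 0).

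Il1b ranks in control HSC ran from 11267 to 15071 (median 14044), close to the end of the ranked genes, and in unstimulated control BMDM peaks at 11458 and 14612 were the ones present in 6 libraries. The difference between unstimulated BMDM and HSC was -0.25 ± 0.123 in controls and did not pass (adjusted p = 0.190, exact permutation p = 0.091). It passed without unstimulated control library 1 (-0.35, adjusted p = 0.030), which held the rank of 11458. As that library held the stronger of the BMDM peaks, this fit is no separate support. Of the 12 fits that left out 1 library, 11 did not pass. In diabetic animals 1 of 5 BMDM and 4 of 6 HSC libraries had a peak, too few for the test.

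Read in whole lists, the Il1b window also held more peaks in HSC than in BMDM. Control HSC libraries had 7 to 14 peaks (median 10.0) and unstimulated control BMDM 1 to 10 (median 2.0). Diabetic HSC had 1 to 9 (median 5.0) and unstimulated diabetic BMDM 1, 4, 1, 3 and 4. Among the 20000 strongest peaks, however, a single region of the Il1b window was held by 3 or more libraries, and it went the other way. It spanned chr2:129378388-129379862, 7249 bp upstream of Il1b, and was held by 5 of 12 HSC, 10 of 11 unstimulated and 9 of 12 stimulated libraries.

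That region lies on a pseudogene. Spcs2-ps, a copy of the signal peptidase subunit gene Spcs2, is annotated at chr2:129378271-129379396, and the most widely held 250 bases reach over its upstream end.
Il1b region, chr2:129379220-129379469: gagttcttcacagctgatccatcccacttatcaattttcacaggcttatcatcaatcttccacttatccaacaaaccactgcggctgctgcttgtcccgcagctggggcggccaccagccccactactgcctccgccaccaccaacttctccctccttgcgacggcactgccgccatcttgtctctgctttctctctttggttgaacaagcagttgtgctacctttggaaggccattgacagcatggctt
Of 1444 stretches of 32 bases in the region, 454 (31.4%) had another exact copy in the genome and 133 (9.2%) were found in Spcs2 on chromosome 7. In the 250 bases shown, 23 of 219 stretches (10.5%) had another copy. Outside the pseudogene none of 435 had one. How reads were placed among copies is not given in the sources used here, and their part in the peak was not tested.

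With this region, distal acetylation of Il1b was past the threshold in diabetic animals, where it entered the test through BMDM (5 of 5 libraries, against 2 of 6 in HSC). It covered 0.568, 0.535, 0.354, 0.430 and 0.562 kb in unstimulated BMDM and 0 to 0.333 kb (median 0) in HSC, where 4 of 6 libraries had none. The groups did not overlap (25.0% of windows passed in this comparison), and the difference was 0.74 ± 0.199 (adjusted p = 0.016, exact permutation p = 0.0087). That call was lost when every window covered in at least 1 library was tested (0.74, adjusted p = 0.057). In controls it was 0.73 ± 0.358 (adjusted p = 0.148). Without the 3 libraries against their labels the control difference was 1.11 (adjusted p = 0.038). With annotated pseudogenes left out of the windows Il1b no longer had enough libraries with a peak to be tested, and in whole lists its sign turned (-0.16 in diabetic and -0.87 in control animals).

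Il1rn, the receptor antagonist, ranked from 12418 to 15340 in 3 of 6 unstimulated control libraries and from 9683 to 13396 in 5 of 6 stimulated ones. The difference with stimulation was 0.31 ± 0.139 in controls and 0.22 ± 0.149 in diabetic BMDM (adjusted p = 0.989 and 0.490). Distally it covered 0 to 0.415 kb in unstimulated diabetic BMDM and 0 to 1.052 kb (median 0.907) after stimulation, a difference of 1.00 ± 0.324 with an adjusted p of 0.109 and an exact permutation p of 0.032. It entered the test through stimulated BMDM (5 of 6 libraries, against 1 of 5). A region in an exon of Il1rn, chr2:24350473-24351034, was held by 0 of 12 HSC, 3 of 11 unstimulated and 7 of 12 stimulated libraries, and by 1 of 9 and 7 of 11 BMDM libraries without the 3 against their labels. In Il1a the single region held by 3 or more libraries belonged to the start of the neighbouring gene Ckap2l, and 1 library of 35 had distal coverage.

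Interleukins 12, 23 and 27 are pairs of subunits. Il12b encodes p40, shared by interleukins 12 and 23, Il23a the p19 subunit of interleukin-23, and Il27 the p28 subunit of interleukin-27. Il27 stood with Osm as a member with H3K27ac at its promoter in 35 of 35 libraries. Ranks ran from 9395 to 14276 (median 11165.5) in control HSC, 7272 to 10876 (median 9092) in unstimulated and 4575 to 10352 (median 6628) in stimulated control BMDM. In diabetic cells they ran from 10938 to 13943 (median 11670) in HSC, were 9025, 10435, 9384, 9594 and 12588 in unstimulated BMDM, and ran from 5882 to 10308 (median 8273) after stimulation. Medians moved toward the top at each step in both disease groups, and neighbouring groups overlapped.

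None of these steps passed for Il27 at the promoter. From HSC to unstimulated BMDM the difference was 0.39 ± 0.133 in controls (adjusted p = 0.061, exact permutation p = 0.019) and 0.24 ± 0.116 in diabetic animals (adjusted p = 0.164, exact permutation p = 0.043). The control difference passed without unstimulated library 5 (0.45, adjusted p = 0.036) or without HSC library 4 (0.45, adjusted p = 0.041). It did not pass in 10 of the 12 fits that left out 1 library. With stimulation it was 0.36 ± 0.192 in controls and 0.33 ± 0.161 in diabetic BMDM (adjusted p = 0.989 and 0.336).

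**Figure D3:**
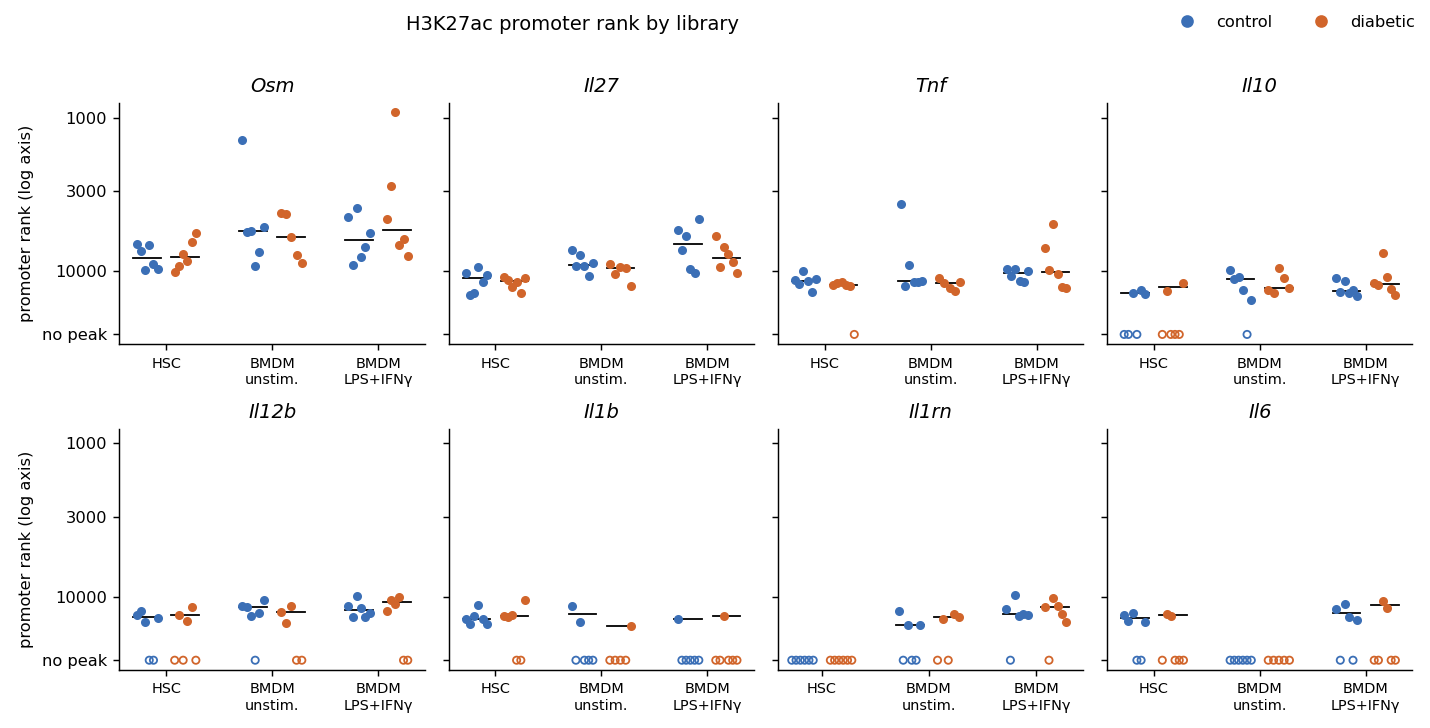
Promoter rank on H3K27ac (vertical axis, log scale, strongest at the top) by cell state for 8 cytokine genes, 1 point per library, control in blue and diabetic in orange. Open points at the foot are libraries with no promoter peak, and lines are medians over libraries with one. Il27 medians moved from 11165.5 to 9092 to 6628 in controls, and Il1b and Il1rn have their open points in opposite cell states.

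H3K4me3 was present at Il27 in 1 of 6 control HSC and 6 of 6 unstimulated control BMDM libraries, a difference of 0.38 ± 0.103 (adjusted p = 0.080, exact permutation p = 0.0087). Il27 entered this test through BMDM. Control H3K4me3 lists were also longer in unstimulated BMDM than in HSC (median 161117.5 against 49624 peaks), and the part of list length was not tested. Without control HSC library 1, which held the lone HSC peak, no HSC library was left with one, and the adjusted p of 0.033 is no separate support. Diabetic HSC held it in 4 of 6 and unstimulated diabetic BMDM in 4 of 5. Stimulated libraries held it in 12 of 12. Control ranks after stimulation ran from 4770 to 14396 and before it from 11662 to 15796, a difference of 0.58 ± 0.243 with an adjusted p of 0.989.

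The distal window of Il27 gave the largest difference with stimulation among the members, 1.84 ± 0.495 in diabetic BMDM. It covered 0, 2.014, 0, 0.465 and 0.047 kb in unstimulated libraries and 1.451 to 8.258 kb (median 1.960) in stimulated ones, so that 1 unstimulated library stood among the stimulated. The adjusted p was 0.057 and the exact permutation p 0.011, and without that library, number 2, the difference was 2.25 (adjusted p = 0.020). Leaving out the library nearest the stimulated ones widens the difference, so that this fit is no separate support. Of the 11 fits that left out 1 library, 10 did not pass. In control BMDM the lengths were 0 to 2.393 kb (median 0.862) and 0.401 to 5.646 kb (median 1.764), a difference of 0.79 ± 0.598 (adjusted p = 1.00). The difference between the 2 stimulation effects was 1.05 ± 0.816 (adjusted p = 0.979).

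Near Il27, 3 regions are given by their counts before and after stimulation. The most frequent lay at chr7:126600534-126602606, 5593 bp upstream and in no protein-coding gene, in 5 of 12 HSC, 3 of 11 unstimulated and 11 of 12 stimulated libraries. Without the 3 libraries against their labels it was in 2 of 9 and 11 of 11 BMDM libraries. The next, chr7:126597673-126598984 at 2732 bp upstream, was in 0, 3 and 8, and chr7:126590436-126591590 inside the gene was in 0, 1 and 6. The 250 bases shared by most libraries of the first follow.
Il27 upstream region, chr7:126600837-126601086: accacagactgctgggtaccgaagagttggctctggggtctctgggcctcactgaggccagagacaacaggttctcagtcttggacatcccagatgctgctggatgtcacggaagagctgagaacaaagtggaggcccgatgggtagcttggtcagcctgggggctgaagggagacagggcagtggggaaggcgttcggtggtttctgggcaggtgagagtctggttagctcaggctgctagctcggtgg
None of the searched motifs matched within these letters. The genes Apobr and Cln3 start inside the Il27 window, and their promoters were removed before distal length was measured.

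Il12b had a promoter H3K27ac peak in 7 of 12 HSC, 8 of 11 unstimulated and 10 of 12 stimulated libraries, with ranks between 9947 and 14856. Control stimulated BMDM had it in 6 of 6 and diabetic in 4 of 6. A region at its promoter, chr11:44398818-44399270 at 793 bp upstream of the start site, was held by 0, 1 and 2 libraries by state. Il23a had H3K27ac in 10 of 12, 8 of 11 and 9 of 12 libraries and H3K4me3 in 0 of 12, 7 of 11 and 6 of 12. Its H3K4me3 peaks were in BMDM libraries, of control and diabetic animals, with ranks of 12168 to 16239. Control HSC had the shortest H3K4me3 lists by median (49624 peaks), and the part of list length was not tested. The region held in 12 of 12 HSC libraries near Il23a, chr10:128302358-128304564, belonged to the start of Pan2, and reaches beyond the bases removed around that start. The Il23a distal difference between BMDM and HSC in controls was -0.18 ± 0.089 (adjusted p = 0.155, exact permutation p = 0.041).

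Tnf, released by macrophages within minutes of LPS, lies between Lta and Ltb in the major histocompatibility complex. Its promoter carried H3K27ac in 34 of 35 libraries. Ranks in controls ran from 10025 to 13748 (median 11565.5) in HSC, 3680 to 12483 (median 11685) in unstimulated and 9668 to 11756 (median 10358.5) in stimulated BMDM. Diabetic ranks were 11818 to 12580 in the 5 HSC libraries with a peak, 11135, 11911, 12844, 13624 and 11902 in unstimulated BMDM and 4958 to 12968 (median 10194) after stimulation. The difference with stimulation was 0.41 ± 0.208 in diabetic BMDM (adjusted p = 0.354) and -0.17 ± 0.224 in control BMDM (adjusted p = 0.989), and the difference between these effects was 0.59 ± 0.334 (adjusted p = 0.905). Without the 3 libraries against their labels that last value was 0.72 (adjusted p = 0.993).

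Distal H3K27ac at Tnf covered 1.329 to 5.189 kb in unstimulated and 2.247 to 11.673 kb in stimulated diabetic BMDM, a difference of 0.69 ± 0.377 (adjusted p = 0.355). Lst1, Lta, Ltb, Nfkbil1 and Gm16181 also start inside this window. Regions over the starts of Lst1, Ltb and Nfkbil1 were 5631, 3055 and 4175 bp wide, and the part of these genes in the distal length was not tested. Among the regions of the Tnf window, given to Tnf by distance alone, chr17:35214129-35215849 at 12122 bp upstream varied most. It was held by 1 of 12 HSC, 7 of 11 unstimulated and 11 of 12 stimulated libraries, or 5 of 9 and 11 of 11 without the 3 against their labels. The part held by most of these, plus strand, is shown.
Tnf upstream region, chr17:35214530-35214779: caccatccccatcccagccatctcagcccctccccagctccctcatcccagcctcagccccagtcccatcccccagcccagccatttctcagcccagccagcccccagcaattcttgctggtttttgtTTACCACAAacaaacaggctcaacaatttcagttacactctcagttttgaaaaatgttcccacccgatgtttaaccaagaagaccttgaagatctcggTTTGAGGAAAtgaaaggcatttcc
It held C/EBP matches at bases 129 to 137 and 227 to 236, in capitals, and a PU.1 match at bases 230 to 235 within the second. Of 3783 distal regions of this length, 25.0% held a C/EBP match and 23.9% a PU.1 match. The region over the Tnf and Lta starts, chr17:35198723-35206026, was held by 7, 10 and 12 libraries by state and cannot be assigned to either gene. Lta, the neighbour with a related product, passed the promoter test from HSC to unstimulated BMDM in diabetic animals (0.48 ± 0.158, adjusted p = 0.041).

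**Figure D4:**
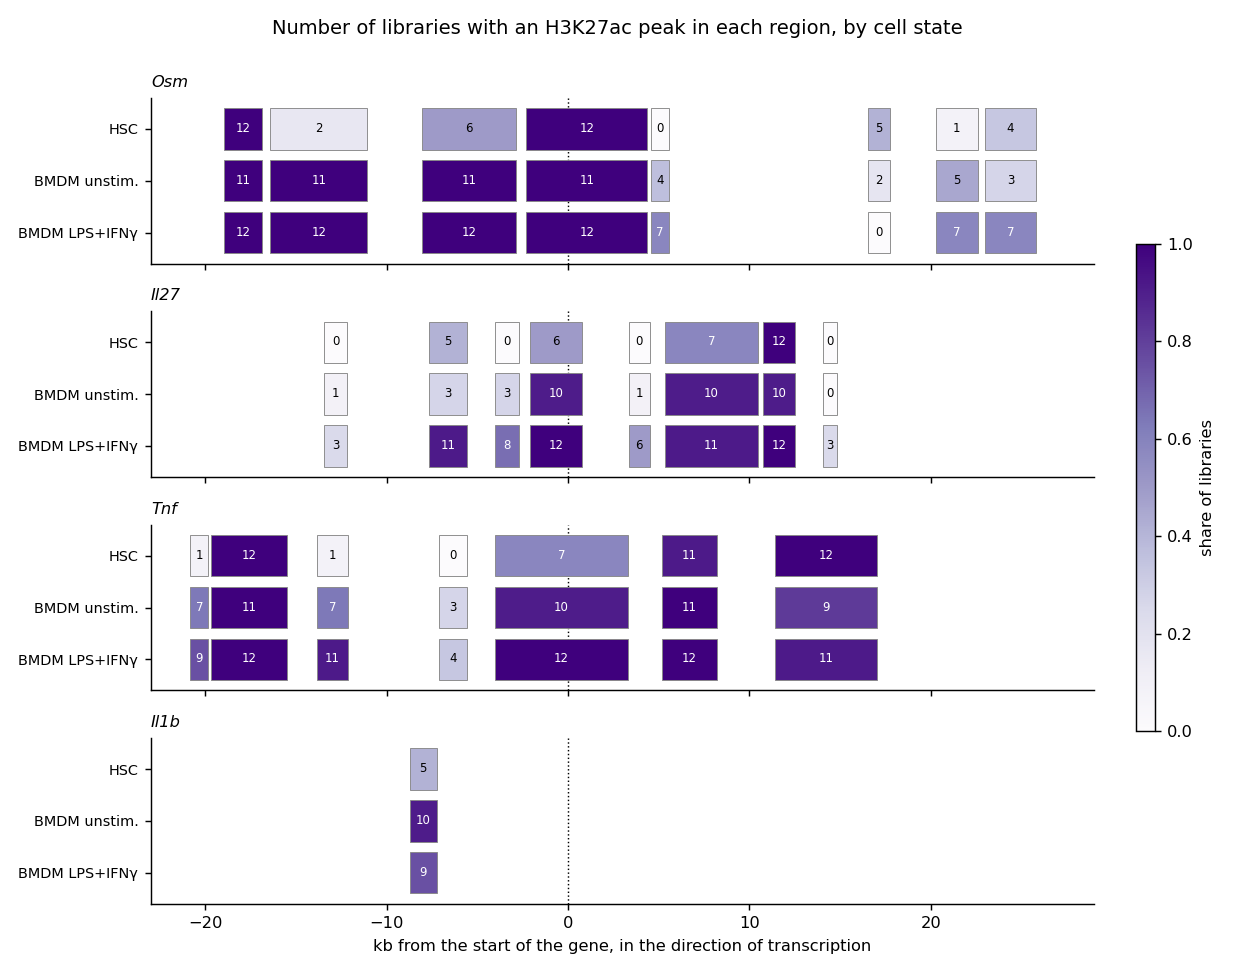
Regions of H3K27ac in the windows of Osm, Il27, Tnf and Il1b, drawn to scale against distance in kb from the start of the gene in the direction of transcription (dotted line at 0). Each row is a cell state, the number in a box is the number of libraries holding the region among their 20000 strongest peaks, and colour is that number as a share of 12 HSC, 11 unstimulated and 12 stimulated libraries. The Osm regions upstream went from 2 and 6 HSC libraries to 11 unstimulated ones, and an Il27 region upstream went from 3 unstimulated to 11 stimulated libraries.

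Il10, which restrains the making of inflammatory cytokines, was the member called at its promoter, where it entered the test through BMDM. In diabetic animals its H3K27ac peak was present in 5 of 5 unstimulated BMDM libraries, at ranks 13239, 13880, 9608, 11197 and 12912, and in 2 of 6 HSC libraries, at 13468 and 11966. The difference was 0.43 ± 0.136 (limma adjusted p = 0.036, exact permutation p = 0.028), in a comparison where 17.0% of all genes passed. The ranks of the libraries with a peak overlapped between the groups, so that the difference lay in peaks against the tied ranks of HSC libraries without one. The call was lost in 6 of 11 fits that left out 1 library each (lowest 0.35, adjusted p = 0.088), with adjusted exact permutation (adjusted p = 0.113), when genes were ranked on fold (0.51, adjusted p = 0.094), with the replicate number as a block (0.39, adjusted p = 0.112) and with a half-width of 2000 bp (0.38, adjusted p = 0.051). In controls 5 of 6 BMDM and 3 of 6 HSC libraries had a peak, a difference of 0.32 ± 0.140 that did not pass (adjusted p = 0.137) and passed without the 3 libraries against their labels (0.50, adjusted p = 0.022).

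After stimulation 12 of 12 libraries held Il10 H3K27ac, at ranks between 7676 and 14683. Differences with stimulation were -0.02 ± 0.135 in control and 0.06 ± 0.155 in diabetic BMDM (adjusted p = 0.997 and 0.866). H3K4me3 at Il10 was uneven, in 4 of 6 control and 2 of 6 diabetic HSC libraries, 5 of 6 control and 0 of 5 diabetic unstimulated BMDM libraries, and 3 of 6 control and 4 of 6 diabetic stimulated ones. The contrast in unstimulated BMDM fell short of the share of libraries needed for a test. H3K4me3 lists of unstimulated BMDM were also longer in controls (median 161117.5 against 96580 peaks), and the part of list length was not tested. A region of the Il10 window, chr1:131038326-131038867 at 18481 bp downstream, was held by 0 HSC, 4 unstimulated and 2 stimulated libraries.

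Set against the genome, cell type was the contrast in which members passed. At the promoter, H3K27ac differed between unstimulated BMDM and HSC for 12.8% of 15339 genes tested in controls and 17.0% of 14793 in diabetic animals. Of the members tested there, 0 of 7 and 1 of 6 (Il10) passed. The member median was 0.32 and 0.16, and that of all genes -0.02 and -0.01. For distal H3K27ac 27.8% of 7681 windows and 25.0% of 6990 passed, and 1 of 5 members (Osm) and 2 of 4 (Osm and Il1b) did. In diabetic animals Il10 at the promoter and Il1b distally entered through BMDM, each with 5 of 5 libraries against 2 of 6 in HSC. Il1b entered the control promoter test through HSC (6 libraries, against 2 in BMDM). The calls of Il10 and Il1b, and the member medians, were therefore partly fixed by the filter. For H3K4me3, 0.196% of 15782 genes passed in controls and 0% of 15328 in diabetic animals, where limma gave 2331 genes an unadjusted p below 0.05 and exact permutation with adjustment called 0. No member passed among the 5 and 3 tested.

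Genes that act with the members also differed at this step. At the promoter in controls, 3 of 14 tested cytokine receptors were higher in BMDM, with Il10rb (3.93 ± 0.998, the interleukin-10 receptor chain), Tnfrsf1b (2.66 ± 0.609) and Il6st (1.21 ± 0.262, gp130 itself), and 1 was lower. Of 8 tolerance and feedback genes 4 were higher, among them Atf3 (3.51 ± 0.784), Ets2 (3.18 ± 0.828) and Bcl3 (2.45 ± 0.581). Of 15 genes of the LPS and IFN-γ response 6 were higher and 2 lower, with Nfkbia, the NF-κB inhibitor, at 3.90 (adjusted p = 0.0049). Of 12 partner subunits and relatives, Il12a, the p35 partner of Il12b, was lower (-0.64 ± 0.140) and none was higher. In diabetic animals the counts were 5 higher and 0 lower of 14 receptors, 4 and 1 of 8 feedback genes, 4 and 0 of 12 response genes and 1 and 1 of 11 partners, with Il12a lower again (-0.59 ± 0.106). These differences are limma calls at an adjusted p under 0.05. On ranks by fold, Il10rb (2.29, adjusted p = 0.201), Tnfrsf1b (1.11, adjusted p = 0.267), Il6st (1.14, adjusted p = 0.113) and Bcl3 (1.61, adjusted p = 0.141) did not pass in controls. With adjusted exact permutation Tnfrsf1b (adjusted p = 0.063) and Ets2 (adjusted p = 0.053) did not.

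**Figure D5:**
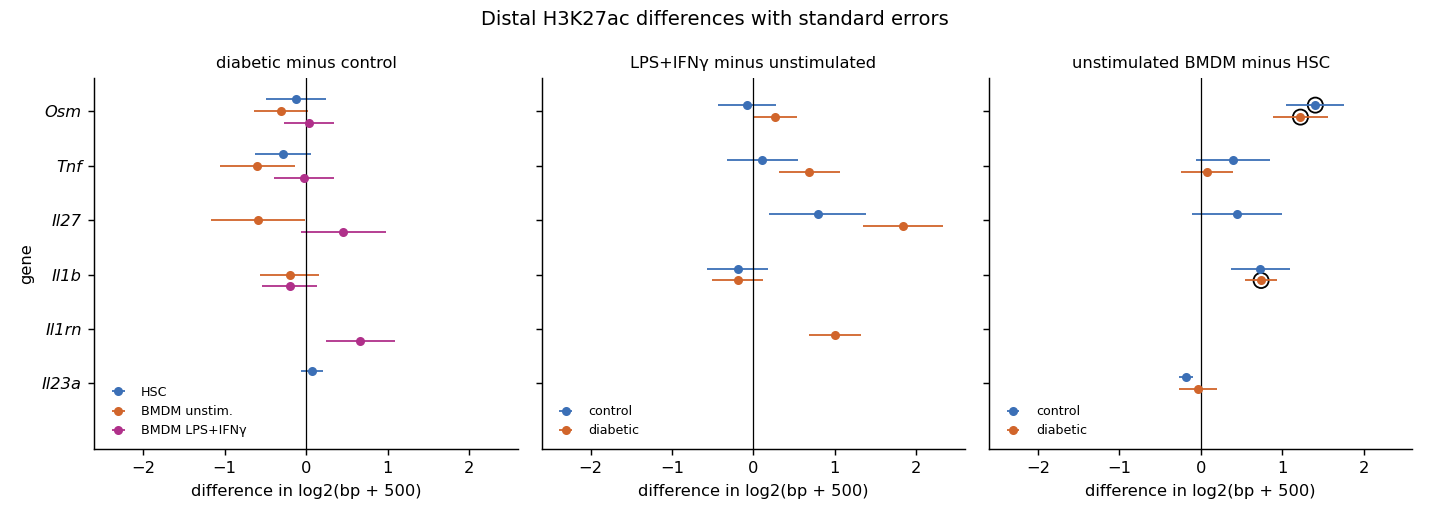
Differences in distal H3K27ac, in log2(bp + 500), for the member genes tested (vertical axis), with the standard error as a bar, for disease (left), stimulation (middle) and cell type (right). Circled points passed an adjusted p under 0.05: Osm in control (1.41) and diabetic (1.22) animals and Il1b in diabetic animals (0.74), all between BMDM and HSC.

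For stimulation no member passed. At the promoter 0% of 15304 genes passed on H3K27ac in controls and 0.284% of 14457 in diabetic BMDM, and limma gave 546 and 2207 genes an unadjusted p below 0.05, with 0 calls by adjusted exact permutation in either. The 7 members tested ran from -0.29 to 0.36 in controls, where 3 were above 0 and the median was -0.021 against -0.003 for all genes. In diabetic BMDM they ran from 0.06 to 0.58, where all 7 were above 0 and the median was 0.22 against -0.02 for all genes. On H3K4me3, 0% passed of 16478 genes in control and of 15677 in diabetic BMDM (438 and 801 with an unadjusted p below 0.05, 0 by exact permutation). Distally 0% of 7392 windows passed in controls (333 unadjusted) and 3.72% of 7022 in diabetic BMDM, with 0 by adjusted exact permutation in either. In control BMDM the 4 members tested had a median of 0.017 against 0.048 for all windows. In diabetic BMDM the 5 members tested had a median of 0.69 against 0.09 for all windows. Il1rn, among these 5, entered the test through stimulated BMDM, so that the diabetic member median was partly fixed by the filter.

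Other genes of the LPS and IFN-γ response passed distally in diabetic BMDM. Of 14 tested genes 5 were higher, including the nitric oxide synthase Nos2 (2.55 ± 0.445, adjusted p = 0.0095), the chemokine Ccl5 (1.93 ± 0.360, adjusted p = 0.013) and the cytokine signalling inhibitor Socs1 (1.47 ± 0.366, adjusted p = 0.044). Of 7 cytokine receptors Il10rb was higher (1.56 ± 0.372, adjusted p = 0.037), and of 4 neutrophil genes Ltf was higher (1.52) and Elane lower (-1.51). None of these passed with adjusted exact permutation (adjusted p = 0.091 for Nos2 and Ccl5, 0.130 for Socs1 and 0.116 for Il10rb), although Nos2 and Ccl5 stood at the smallest p that this test can give. Ccl5 was covered in 6 of 6 stimulated and 1 of 5 unstimulated libraries and so entered the test through stimulation. Of these genes, Socs1 and Il10rb were each lost in 8 or more of the 11 fits that left out 1 library. In control BMDM none of the lists had a call for stimulation. Without the 3 libraries against their labels, 11 promoters and 34 distal windows passed in controls, none of them a member's. Those libraries were picked on the same lists for going against the stimulation pattern. These counts are therefore no separate support for a response in controls. The stimulation effects of control and diabetic BMDM did not differ for any gene in either mark or measure by the interaction test (0 calls of 14741 on promoter H3K27ac, 16023 on H3K4me3 and 7020 distal windows).

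Between diabetic and control animals no gene passed in any state. On promoter H3K27ac, 0% passed of 15098 genes in HSC, of 15023 in unstimulated and of 14739 in stimulated BMDM, with 423, 582 and 469 at an unadjusted p below 0.05 by limma and 0 by adjusted exact permutation. Members differed by -0.14 to 0.06 in HSC, -0.39 to 0.09 in unstimulated and -0.22 to 0.62 in stimulated BMDM, and the lowest exact permutation p of a member was 0.229, 0.143 and 0.281. On H3K4me3, 0% passed of 14875, 15980 and 16202 genes (448, 569 and 621 unadjusted, 0 by exact permutation), and members differed by -0.20 to -0.11, -0.63 to 0.12 and -0.28 to 0.17. For distal H3K27ac, 0% passed of 7536, 7002 and 7331 windows (408, 332 and 187 unadjusted, 0 by exact permutation), and members differed by -0.28 to 0.07, -0.60 to -0.20 and -0.20 to 0.66.

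The widest disease differences of the members at the promoter were those of Osm, 0.62 ± 0.431 on H3K27ac in stimulated BMDM (exact permutation p = 0.281) and, in unstimulated BMDM, -0.63 ± 0.491 on H3K4me3 (exact permutation p = 0.387). Distally the widest was that of Il1rn in stimulated BMDM, 0.66 ± 0.424 (adjusted p = 0.9997, exact permutation p = 0.145), with 5 of 6 diabetic and 2 of 6 control libraries covered. For Tnf in unstimulated BMDM the promoter difference was -0.39 ± 0.234 and the distal one -0.60 ± 0.459, and unstimulated control library 1 had a rank of 3680 and 14.425 kb against at best 9110 and 7.445 kb in the other control libraries. The standard errors of the 7 members tested in HSC were 0.103 to 0.151. The change of the disease difference from HSC to unstimulated BMDM was not called for any gene (0 of 14972 promoters on H3K27ac, of 15450 on H3K4me3 and of 7064 windows), and the one from unstimulated to stimulated BMDM equals the interaction given above.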

How the data were processed

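Chromatin of lineage-depleted marrow cells and of BMDM from control and diabetic mice was immunoprecipitated for H3K27ac (ab4729) or H3K4me3 (ab8580) and sequenced. Of 106 samples, 36 were inputs without a list, and 70 had a peak list in narrowPeak form. The submitters' processing notes name Trim Galore 0.3.3, cutadapt 1.8, FastQC 0.11.3, Bowtie2 2.2.6, Picard 2.19.2 and 2.18.14, bedtools 2.19.1 and MACS2 2.2.7.1 and the build GRCm38 (mm10), without roles or settings. The authors deposited 1 list per library, with a fold ratio of signal over background and the −log10 p and −log10 q of each peak. The lowest deposited −log10 q was 1.30. Values are therefore thresholded, reads below the threshold are not in the lists, and ranks were used because the deposited p grows with depth.

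From these lists, each protein-coding gene of GENCODE M21 was given the strongest peak on −log10 p within 1000 bp of any start site. Genes without a peak shared the mean of the remaining ranks. Distal length was the bases of gene body and 20 kb flanks, less 1000 bp around every protein-coding start, covered by the top 20000 peaks, on log2 with 500 bp added. A gene was tested when at least 50% of the compared libraries had a peak. Differences were fitted with limma 3.58.1 (empirical Bayes with trend, R 4.3.3) on the libraries of each contrast alone, with Benjamini-Hochberg adjustment over all genes tested and a threshold of 0.05. Of these contrasts 14 were on rank and 7 on distal length. Exact two-sided permutation p-values over libraries stand beside them. Regions were merged top 20000 peaks found in at least 3 libraries. Python 3.11.15, pandas 2.3.3 and numpy 2.4.6 were used. The fit was run on simulated data for a single contrast, unstimulated diabetic BMDM against HSC on H3K27ac, on rank and on distal length. That simulation used normal noise without tied ranks or zero lengths, and the other contrasts were not simulated.

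Groups came from the labels. The study gives n as individual animals, the labels do not tie a number to an animal, and p-values measure the spread between these libraries. All members are named, and for each list up to 3 called genes of largest difference. Regions are those differing most between unstimulated and stimulated BMDM. Osm regions that differ between HSC and BMDM, Lta, and further list members were named after their values were seen. The members, lists and motifs were chosen with earlier results of these data known. Alternatives changed promoter width, peak overlap, list depth, the ranking column, filters, flanks, the pseudocount and the libraries used.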

Additional observations from a re-analysis of the deposited data

Results flagged for a closer look

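In 5 of 47 groups of members' values, 1 library stood apart from the rest of its group by Dixon's criterion, which chance meets in about 1 of 20 groups. Unstimulated control library 1 ranked Tnf at 3680 on H3K27ac, where the others stood at 9110 to 12483. The same library ranked Osm at 1400, against 5204 to 9313. Stimulated diabetic library 1, among the H3K4me3 libraries of unclear scaling, ranked Il27 at 6374 on H3K4me3, against 11580 to 12242. Stimulated diabetic library 3 had 8.258 kb of distal H3K27ac at Il27, against 1.451 to 2.177 kb. Diabetic HSC library 3 had 0.413 kb at Il23a, against 0.002 to 0.111 kb.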

How the results depend on the processing

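The number of members called was within 1.5 times the reported one in 185 alternatives and 231 fits that left out 1 library, and moved further in 21 and 12. These concern unstimulated BMDM against HSC, apart from 1 fit on stimulation. For promoter H3K27ac in controls (0 reported), 1 member was called with a half-width of 500 bp, with the top 20000 peaks, with an overlap of 200 bp and without the 3 libraries against their labels. In diabetic animals (1 reported) it was 0 with exact permutation, fold ranks, the top 20000 peaks or a −log10 q of at least 5. For distal H3K27ac in controls (1 reported) it was 0 with the top 10000 peaks or 5 kb flanks, 2 with full lists or without the 3 libraries, and 4 with 50 kb flanks. In diabetic animals (2 reported) it was 1 with exact permutation, the top 10000 peaks, any gene held by at least 1 library or pseudogenes left out (an alternative chosen after seeing the data), and 0 with full lists or 5 kb flanks. Full lists turned the sign of Il1b (-0.87 in controls, -0.16 in diabetic animals) and of Il23a in controls (0.17). The causes were not tested.

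Leaving out 1 library gave 0 to 2 members for promoter H3K27ac in controls and 0 to 1 in diabetic animals, 0 to 1 for H3K4me3 in controls, 0 to 1 for distal stimulation in diabetic BMDM, and 1 to 2 and 2 to 2 for distal cell type in controls and diabetic animals. Il1b passed distally in controls without unstimulated library 5 (0.97, adjusted p = 0.044), as did Il10 at its promoter (0.41, adjusted p = 0.048). Il10 in diabetic animals was lost without unstimulated library 4 or 5 or HSC library 1, 3, 4 or 5.

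Whether shared numbers pair the libraries was not settled. By contrast, the lowest correlation of same-numbered deviations was -0.33 to 0.06 and the highest -0.01 to 0.37. At most 3 libraries correlated best with their own number. For promoter H3K27ac stimulation in diabetic BMDM these were 3 of 5, and the correlations ran from 0.06 to 0.35. With a replicate block, members called in diabetic cell type fell to 0 at the promoter (Il10 0.39, adjusted p = 0.112) and to 1 distally (Osm 1.21, adjusted p = 0.064), and promoter stimulation in diabetic BMDM to 14 genes from 41.

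Counts over all genes moved by more than 1.5 times as follows. Promoter stimulation in diabetic BMDM (41) gave 73 with a half-width of 2000 bp and 0 with fold ranks or exact permutation, and distal stimulation (261) gave 31 with the top 10000 peaks, 138 with 5 kb flanks, 90 in at least 1 library and 0 with full lists or exact permutation. Promoter cell type (1965 in controls, 2514 in diabetic animals) gave 657 and 857 with fold ranks. H3K4me3 cell type in controls (31) gave 65 in at least 1 library and 0 in 8 alternatives, and 3 not 0 in diabetic animals in at least 1 library. Distal cell type (2137 and 1747) gave 654 and 573 with the top 10000 peaks, 1329 and 1093 with 5 kb flanks and, in diabetic animals, 2631 with 50 kb flanks, which also gave 1 not 0 for disease in HSC.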

Other observations

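As a description, the promoters whose H3K27ac rank followed a member most closely over 35 libraries were found by Spearman correlation. For Il1b they were Rpl10 (0.802), Tlr6 (0.795) and Trim12a (0.794). For Il6 they were Psmc4 (0.707), Rps28 (0.682) and Ndufa7 (0.682), each with a peak in 35 libraries where Il6 had 12. For Tnf they were Zc3h12d (0.767), Olfr433 (0.764) and Dnmt3l (0.752). All points share libraries, list length and cell state.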
